A study of Sus scrofa with 5 samples.

Results

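Smooth muscle cells and myofibroblasts were picked out of 5 single-cell RNA-seq libraries of the piglet cecum, from day 0 (d0), d1, d7, d14 and d21 after birth. A barcode was taken as a member when it had at least 200 detected genes, at least 5 UMIs (counts of tagged RNA molecules, with PCR copies counted once) of ACTG2, MYH11 and CNN1 together, at least 2 of these 3 genes detected, at most 2 UMIs of RGS5, and no UMI of WNT5A or PTPRC. This gave 370 members of the 72701 barcodes with at least 200 genes (the kept barcodes), or 0.509% (exact Clopper-Pearson 95% interval 0.459 to 0.563%). The levels of these genes chose the members, so they describe the members and are not a result. All 5 libraries came from cecal mucosa of male Large White piglets that differed only in age, with no treatment. Per the study's methods, cells of 5 piglets were mixed into each library, and the tissue was dissociated with EDTA and trypsin. Each age was 1 library. Age and library therefore cannot be told apart, no comparison between ages could be tested, and no p-value is given.

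Smooth muscle contracts when calcium activates the myosin light chain kinase, which phosphorylates myosin so that it pulls on actin filaments anchored through filamin, calponin and desmin. In the gut it forms the outer muscle coat and the thin muscularis mucosae, and strands of it run up between the crypts. Myofibroblasts lie just under the epithelium, share the smooth muscle actin with muscle, respond to hedgehog ligands from the epithelium, and lay down matrix and bone morphogenetic protein (BMP) signals. Pericytes, which wrap small vessels, carry many of the same contractile proteins, and mucosal fibroblasts carry the same matrix genes, so both served as comparison cells.

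On the Sscrofa11.1 assembly, ACTG2 (enteric gamma actin) spans chr3:69097366-69121542 and MYH11 (smooth muscle myosin heavy chain) spans chr3:7002667-7143093. CNN1 (calponin, which binds actin) spans chr2:70183370-70190756, TAGLN (transgelin, an actin-bundling protein) chr9:44561756-44567385, and MYLK (the myosin light chain kinase) chr13:136509878-136809674. TAGLN and MYLK were given as markers of these cells but took no part in choosing them.

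The members came almost wholly from 3 libraries. There was 1 member of 15218 kept barcodes at d0, 103 of 14142 at d1, 5 of 10272 at d7, 203 of 16177 at d14 and 58 of 16892 at d21. As shares of kept barcodes these were 0.00657% (0.000166 to 0.0366) at d0, 0.728% (0.595 to 0.883) at d1, 0.0487% (0.0158 to 0.114) at d7, 1.25% (1.09 to 1.44) at d14 and 0.343% (0.261 to 0.444) at d21. The d14 share was the highest and the d0 share the lowest, and no 2 of the 5 intervals overlapped except those of d0 and d7. These and all later intervals are exact 95% intervals that cover counting error only, not the spread between piglets, dissociations or libraries. The share is a share of captured cells, so a loss of muscle during dissociation and a scarcity of muscle in the tissue cannot be told apart.

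**Figure D1:**
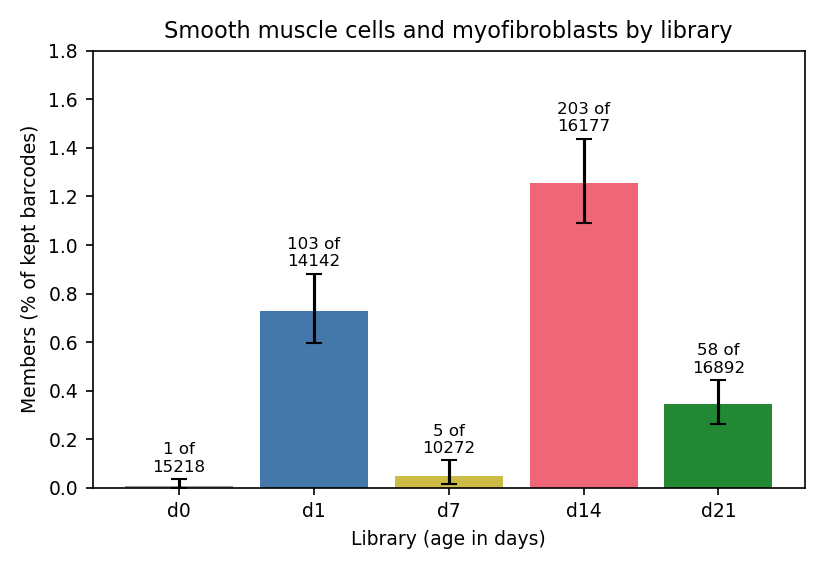
Share of kept barcodes (percent, vertical axis) that met the rule for smooth muscle cells and myofibroblasts in each library; error bars are exact 95% binomial intervals and the numbers are members. The d14 library stood highest at 1.25%, and d0 and d7 stood near 0 with 1 and 5 members.

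Each step of the rule weighed differently on the libraries. At d14, 792 barcodes had 5 UMIs of the 3 genes, 685 also had 2 of them detected, 371 of those passed the RGS5 limit, 270 lacked WNT5A and 203 also lacked PTPRC. At d1 the same steps left 162, 132, 116, 110 and 103 barcodes, and at d21 they left 274, 184, 88, 83 and 58. In number the RGS5 limit thus set aside the most barcodes at d14 and few at d1. It left 371 of 685 at d14, 88 of 184 at d21 and 116 of 132 at d1, so as a share it set aside the most at d21. Just outside the limit of 5 UMIs lay 5 barcodes with 4 UMIs at d1, 13 at d14 and 8 at d21, and just inside it lay 8, 6 and 5 barcodes with exactly 5. Of the 370 members 239 had all 3 rule genes detected, and 125 carried 1 or 2 UMIs of RGS5.

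The libraries differed in depth. Kept barcodes held 83394038 counts at d0, 80196009 at d1, 47921183 at d7, 91863866 at d14 and 69522315 at d21, and the members held 1820324 counts in all, of which 1306645 came from d14, 313403 from d1 and 178632 from d21. The median UMIs per member were 2385 at d1, 6184 at d14 and 2640 at d21, beside 3005, 4121 and 2587 in all kept barcodes. The d14 members were therefore the deepest. With every barcode of at least 1000 UMIs thinned to 1000, the share of members was 1.52% at d14, 0.470% at d1 and 0.302% at d21. Mitochondrial counts made up 11.6% of the members' summed counts at d1, 5.23% at d14 and 8.08% at d21. Of the 72130 different barcode sequences 566 were kept in more than 1 library, and no sequence was a member in more than 1.

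Levels below are counts summed over all cells of a kind in a library, per 10000 counts of those cells, and fold changes are on the log2(level + 0.1) scale. The level of ACTG2 in the members was 12.6 (11.4 to 13.9) at d1, 21.3 (20.5 to 22.1) at d14 and 13.5 (11.9 to 15.4) at d21, and 37.6% of its d21 counts sat in 1 barcode. MYH11 stood at 27.5 (25.7 to 29.4), 28.3 (27.4 to 29.2) and 39.3 (36.4 to 42.3), and CNN1 at 3.89 (3.23 to 4.65), 5.51 (5.12 to 5.93) and 6.10 (5.01 to 7.36). None of the 3 rule genes differed 2-fold between any of these ages. Cell by cell the spread was wide: ACTG2 ran from 0 through a median of 9.33 to 199 per 10000 over the 203 d14 members, and MYH11 from 0 through 25.6 to 234. The d14 median of ACTG2 lay well below its summed level of 21.3, whereas those of MYH11 were close. The 5 d7 members held 23.5 of ACTG2 and 53.7 of MYH11, with over 50% of either gene's counts from 1 cell (51.0% and 61.6%), and the single d0 member held 802 counts in all.

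**Figure D2:**
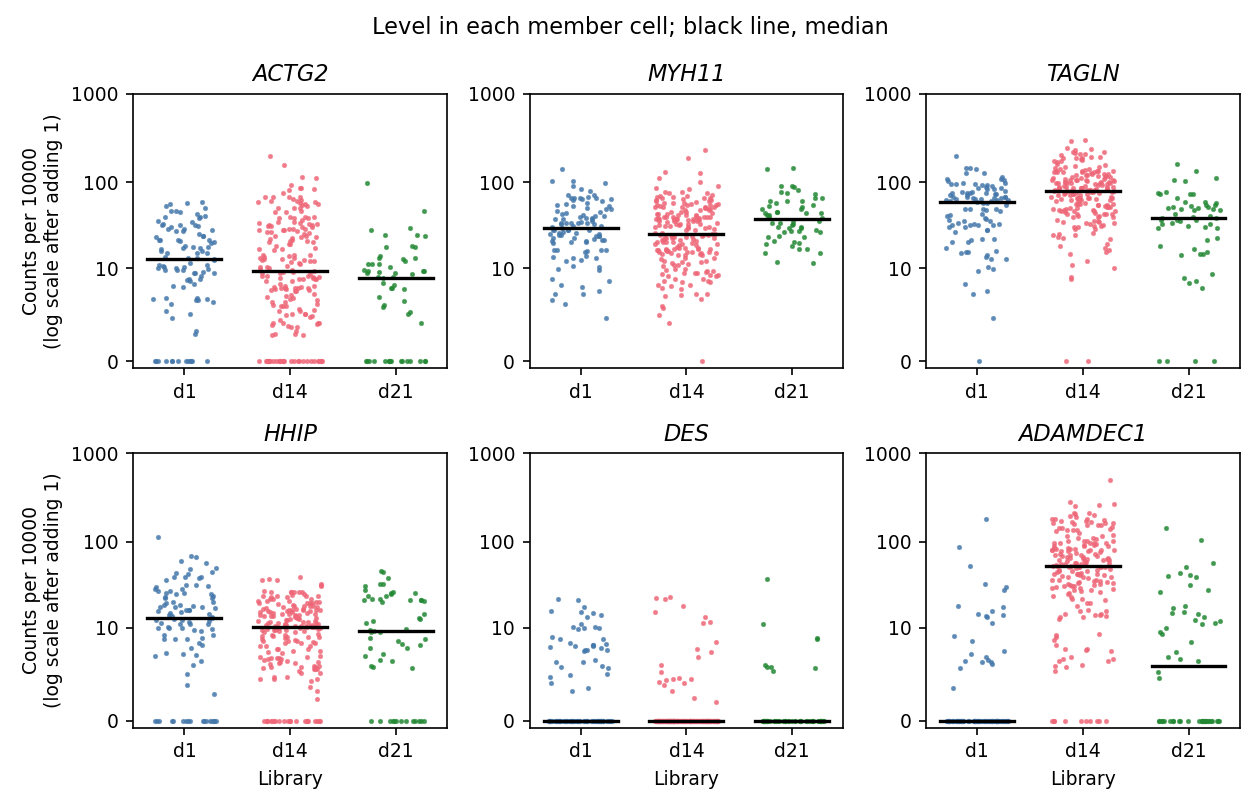
Level of 6 genes (counts per 10000, log scale after adding 1) in each member cell of the d1, d14 and d21 libraries; points are cells and black lines medians. TAGLN was above 0 in nearly all members, DES was at 0 in most members of each library, and ADAMDEC1 had medians of 0 at d1 and 53.4 at d14.

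The markers that the rule did not use were in place. TAGLN was detected in 102 of 103 members at d1, 201 of 203 at d14 and 54 of 58 at d21, and its level was 48.2, 88.3 and 57.6. In T cells, which should lack it, TAGLN had a UMI in 4.93%, 9.88% and 5.86% of cells at median depths of 3005, 4624.5 and 4749 UMIs, and a level of 0.186, 0.521 and 0.182. MYLK was detected in 94 of 103, 198 of 203 and 55 of 58 members, against 6.90%, 6.31% and 4.21% of T cells. The members thus held both markers far above what free RNA gave T cells of the same libraries, in 3 of 3 libraries. DES, the muscle intermediate filament, was found in only 41 of 103, 24 of 203 and 9 of 58 members, against 0.493%, 0.439% and 0.190% of T cells. DES-positive members were thus a minority at each of the 3 ages, and at d21 48.0% of DES counts came from 1 cell.

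Traces of other cell types differed by library. Epithelial markers (9 genes) summed to a level of 22.8 in the d1 members, 0.398 at d14 and 1.23 at d21, led at d1 by KRT8 at 5.36 with none of the 9 at 0. T cells of the same libraries carried 33.5, 4.44 and 3.59, and pericytes 25.7, 0.439 and 2.03, so the epithelial signal of d1 stood in unrelated cells as well. Leukocyte markers (12 genes, led by CD74 at d1 and d14 and CD52 at d21) summed to 1.40, 3.07 and 7.39, with 7, 2 and 6 of them at 0. The rule itself fixed PTPRC, 1 of the 12, at 0. Pericyte markers (11 genes, led by PDGFRB) summed to 3.64, 4.48 and 7.95 in the members against 43.7, 72.7 and 86.0 in pericytes. RGS5, 1 of the 11, was used to choose both kinds of cell, and without it the sums were 3.03, 3.64 and 5.99 in the members and 19.4, 35.4 and 45.0 in pericytes. Blood endothelial markers (8 genes) summed to 3.73, 0.406 and 0.560. Markers of interstitial cells of Cajal, the gut's pacemaker cells (4 genes), summed to at most 0.504. At least 1 UMI of EPCAM, CDH5, PECAM1 or CD3E, which mark epithelium, endothelium and T cells, was present in 33 members at d1, 21 at d14 and 12 at d21, 66 in all. The part of such signal in the comparisons below was not tested beyond the values given beside them.

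Against all other kept barcodes of the same library, the members were marked by the contractile apparatus, then by matrix. Of 2666 genes with a sufficient level, 345 were at least 2-fold higher in the members in each of the d1, d14 and d21 libraries, 12.9% of those tested, and 93 were at least 2-fold lower in each, 3.49%. The cells were chosen on contractile genes, so these counts carry no test. Of 35 contractile genes 32 were measured at a sufficient level, 29 (the 3 rule genes included) were higher and none was lower, with a median log2 fold of 3.21 against 0.07 over all genes tested. Of 42 collagen and matrix genes 26 of 30 measured were higher and none was lower, with a median of 2.43. Of the 5 given markers, TAGLN and MYLK, which the rule did not use, were among the higher genes. The 3 rule genes were too, but the choice of cells fixed this. Of 19 stress and immediate early genes measured none was higher and 2, the chaperone genes HSPA8 and DNAJB1, were lower.

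The 20 genes of highest mean fold held mostly muscle genes but also several that mark mucosal mesenchyme. After ACTG2 and MYH11 came ACTA2, the actin shared by smooth muscle and myofibroblasts, at 63.4 (60.7 to 66.3), 138 (136 to 140) and 94.7 (90.2 to 99.3) in the d1, d14 and d21 members, a mean log2 fold of 5.09 over other barcodes. HHIP, a membrane protein that binds hedgehog ligands and is itself induced by them, stood at 14.2 (12.9 to 15.6), 10.8 (10.2 to 11.4) and 12.4 (10.8 to 14.2), a mean log2 fold of 4.64. MFAP4, a microfibril protein, stood at 22.8 (21.2 to 24.6) at d1 and 12.9 (11.3 to 14.7) at d21, with d14 between them. HHIP and MFAP4 were thus high in each of the 3 libraries, and neither differed 2-fold between ages.

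ADGRD1, an adhesion G protein-coupled receptor, stood at 6.16, 7.68 and 11.7, ENHO, which encodes the secreted peptide adropin, at 5.78, 8.64 and 5.15, and TGFBR3, a co-receptor for transforming growth factor beta, at 5.42, 3.59 and 4.14. The thin-filament genes TPM1 (13.0, 30.2 and 27.0) and TPM2 (9.32, 13.6 and 12.6), the regulatory light chain MYL9 (5.71, 15.6 and 11.9) and the filamin FLNA (11.6, 19.6 and 25.8) were also in this set. The remaining places went to CNN1, TAGLN, MYLK, WFDC1, FN1, MGLL, PGM5 and FHL1.

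**Figure D3:**
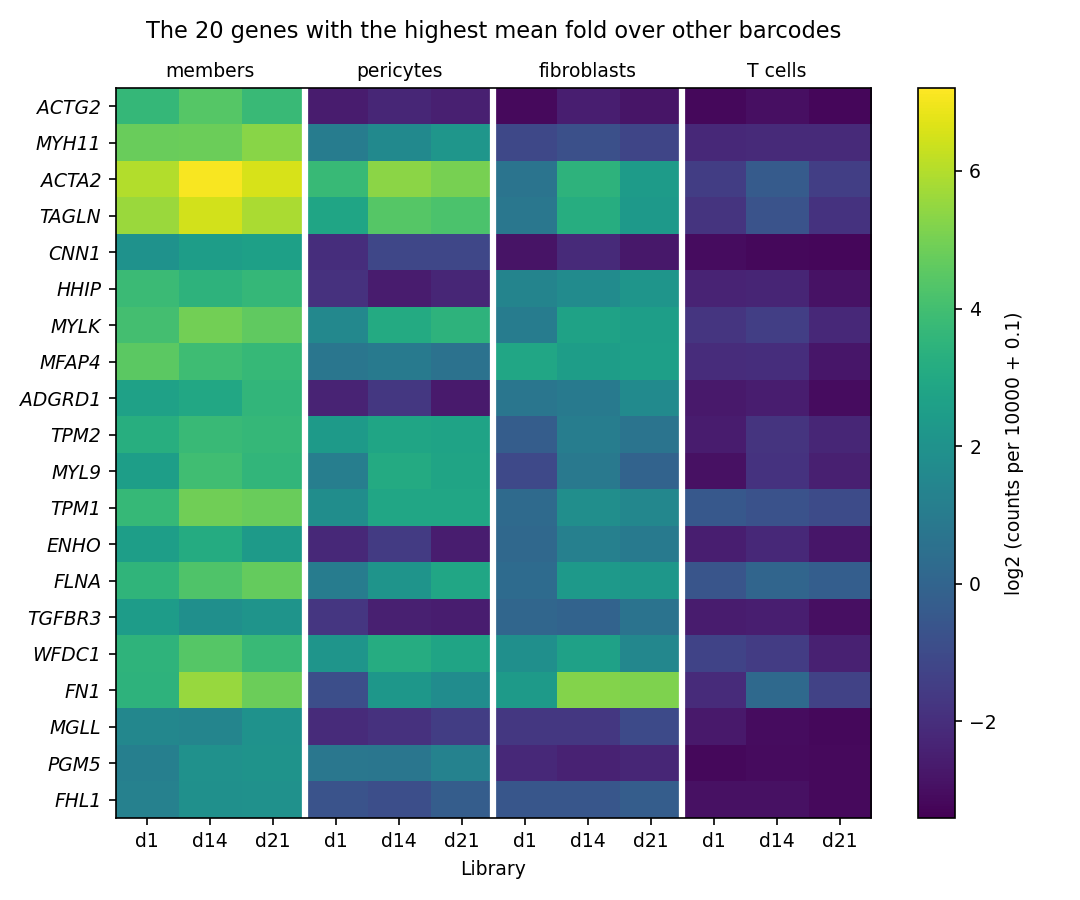
Levels (log2 of counts per 10000 plus 0.1, colour) of the 20 genes with the highest mean fold over other barcodes, in members, pericytes, fibroblasts and T cells of the d1, d14 and d21 libraries. ACTG2 and CNN1 were near the bottom of the scale in the comparison cells, whereas ACTA2, TAGLN and FN1 were shared with pericytes or fibroblasts.

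Pericytes were taken as barcodes with at least 5 UMIs of RGS5 and fibroblasts by DCN, LUM and COL1A1, both with fewer than 5 UMIs of the rule genes. They numbered 371, 300 and 308 pericytes and 1573, 1275 and 356 fibroblasts at d1, d14 and d21. Of 2914 genes 141 were at least 2-fold higher in the members than in pericytes in each library, 4.84%, and 185 lower, 6.35%. Of 2729 genes 96 were higher than in fibroblasts, 3.52%, and 48 lower, 1.76%. Contractile genes separated the members from fibroblasts (22 of 32 higher, none lower) and in part from pericytes (17 of 33 higher, with CNN3 lower). Both counts include the 3 rule genes, whose difference the choice of cells fixed. Matrix genes separated them from pericytes (11 of 31 higher, 3 lower) and hardly from fibroblasts, where MFAP4 was higher and FBLN1 lower of 34. FBLN1 and PDGFRA were the only fibroblast markers of 11 measured that were lower in the members in each library. Of 9 channel genes measured against pericytes, 6 were lower in the members, among them KCNJ8 and ABCC9, the subunits of the ATP-sensitive potassium channel of pericytes, and PLN, which restrains the calcium pump of the sarcoplasmic reticulum, while the gap junction gene GJA1 was higher.

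In 3 libraries out of 3, 50 of 3137 genes, 1.59%, were at least 2-fold higher in the members than in both comparison cells. HHIP was among the 50: beside its 14.2, 10.8 and 12.4 in members, its level was 0.167, 0.0655 and 0.110 in pericytes and 2.50, 3.14 and 4.27 in fibroblasts. MGLL, which breaks down the endocannabinoid 2-arachidonoylglycerol, stood at 2.78, 2.62 and 3.92 in members. RIMS1, known from the release machinery of synapses, stood at 1.69, 1.97 and 0.560. Among the 50, CDC42EP3 (an effector of the GTPase CDC42), the adhesion molecule NEGR1, the extracellular superoxide dismutase SOD3 and the intermediate filament gene SYNM are named here after their values were seen. CDC42EP3 stood at 3.64, 6.08 and 5.65 and NEGR1 at 1.47, 1.35 and 1.90. The comparison cells were required to be low in the rule genes, so the choice of cells fixed the place of ACTG2, MYH11 and CNN1 among the 50.

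Channels, receptors and regulators of contraction were sparse at this depth. Only 4 of 25 channel genes and 9 of 29 receptor and signalling genes were measured at a sufficient level in the comparison with other barcodes. GJA1, the gap junction connexin 43, stood at 1.85 (1.41 to 2.39), 4.05 (3.71 to 4.41) and 3.69 (2.86 to 4.70), and the d1 interval lay below both later ones. PDE5A, which degrades the relaxing messenger cyclic GMP, stood at 2.58 (2.05 to 3.21), 4.07 (3.73 to 4.43) and 5.32 (4.30 to 6.50). The muscarinic receptor CHRM2 rested on 9, 101 and 22 counts, a level of 0.287, 0.773 and 1.23. PPP1R12B, a subunit of the phosphatase that reverses myosin phosphorylation, was at 0.798 (0.516 to 1.18), 0.865 (0.713 to 1.04) and 2.58 (1.89 to 3.43), so its d21 level lay above the other two. Of the transcription factors, 8 of 12 measured were higher than in other barcodes, against 12.9% of all genes, among them TEAD1, TCF21, TBX2 and the gut mesenchymal factors NKX2-3, FOXF1, FOXF2 and FOXL1, which together pattern the gut wall. None of the factors measured was higher than in pericytes (14 measured, MKL2 and NR2F2 lower) or than in fibroblasts (11 measured) in each library. FOXF1 stood at 1.15, 1.54 and 1.62 and NKX2-3 at 1.79, 2.16 and 1.23, with overlapping intervals for neighbouring ages in FOXF1.

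Among signal genes, PTCH1, the hedgehog receptor and itself a target of the pathway, stood at 4.75 (4.02 to 5.58), 4.08 (3.74 to 4.44) and 5.88 (4.81 to 7.12), and 8 of 13 signal genes measured were higher than in other barcodes, against 12.9% of all genes: HHIP, PTCH1, WNT4, IGFBP3, IGFBP5, PDGFC, TGFBI and CYR61. Against pericytes 7 of 16 were higher, beside 4.84% of all genes, and TGFB2 was lower. Against fibroblasts 3 of 16 were higher, HHIP, IGFBP3 and PDGFC, beside 3.52% of all genes, with a median log2 fold of -0.07. The chemokine CXCL14, a marker of the mesenchyme under the epithelium, stood at 37.7 (35.6 to 39.9), 128 (126 to 130) and 74.1 (70.2 to 78.2), beside 40.1, 245 and 81.8 in fibroblasts. Fibroblasts thus held CXCL14 at or above the level of the members at each of the 3 ages.

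Between d1 and d14, 365 of 3565 genes were at least 2-fold higher at d14, 10.2%, and 276 at least 2-fold lower, 7.74%, with a median log2 change of 0.12 over all genes. When the mitochondrial genes were left out of the totals this median was 0.00 and the split became 327 higher and 331 lower. Matrix genes stood out: 17 of 36 measured were higher at d14 and 1, the nephronectin gene NPNT, was lower, with a median of 0.90. The fibroblast markers, some of them matrix genes themselves, moved with them in the members: 9 of 11 measured were higher at d14 and none was lower, with a median of 1.64. The part of fibroblast RNA in the matrix change was not tested. Fibronectin, FN1, went from 10.8 (9.64 to 12.0) to 47.5 (46.4 to 48.7), a log2 change of 2.13. COL1A1 went from 8.10 to 23.0 (1.49), COL18A1 from 1.66 to 11.0 (2.66) and COL14A1 from 5 counts at d1, a level of 0.160 (0.0518 to 0.372), to 4.81 (4.24). COL14A1 and COL18A1 went from a minority to a majority of cells, being detected in 5 and 21 of 103 members at d1 and in 141 and 186 of 203 at d14, where depth per cell was also greater. Fibroblasts moved the same way: the log2 change of COL14A1 in them was 3.51 and that of COL18A1 2.94.

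Of the contractile genes 34, the rule genes included, were measured between d1 and d14. At d14 7 were at least 2-fold higher (ACTA2, MYL9, TPM1, HSPB1, HSPB6, CRYAB and CNN2), against 10.2% of all genes. DES alone was at least 2-fold lower, against 7.74% of all genes, and the median was 0.75. ACTA2 changed by 1.12 and MYL9 by 1.43 on the log2 scale, whereas DES went from 2.04 (1.57 to 2.61) to 0.719 (0.581 to 0.880), a change of -1.39. DES was thus the exception in direction among the contractile genes past 2-fold. PDLIM3 was also lower at d14, at 0.925 and 0.566, by less than 2-fold. In pericytes ACTA2 changed by 1.64 over the same pair of libraries and in fibroblasts by 2.75.

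Among genes of at least 1 per 10000 at either age the growth factor IGF1 had the largest rise, from 4 counts at d1, a level of 0.128 (0.0348 to 0.327), to 4.51 (4.15 to 4.89) at d14, a log2 change of 4.34, beside 3.94 in fibroblasts. ADAMDEC1, a metalloprotease-like gene of gut mesenchyme, went from 5.93 (5.11 to 6.85) to 75.3 (73.8 to 76.8), a change of 3.64 against 1.57 in fibroblasts and 1.18 in pericytes. At d1 ADAMDEC1 was detected in 26 of 103 members with 31.2% of its counts in 1 of them, and at d14 in 193 of 203. BMP4, which restrains epithelial renewal, went from 0.862 (0.568 to 1.25) to 4.21 (3.86 to 4.58). The differences between these changes in members and in fibroblasts have no replicate check.

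The interferon-induced genes IFI6, ISG12(A) and MX1 were among the 10 largest rises from d1 to d21. IFI6 stood at 2.84 (2.28 to 3.49), 21.2 (20.4 to 22.0) and 48.3 (45.1 to 51.6) at d1, d14 and d21. T cells followed the same course for IFI6, at 1.52, 23.5 and 33.9, as did pericytes at 2.69, 21.8 and 39.1. ISG12(A) stood at 1.75, 13.1 and 26.3 in members but at 0.822, 0.966 and 1.36 in T cells. IFI6 therefore moved in unrelated cells of the same libraries, and ISG12(A) moved in members, pericytes (log2 change 2.89) and fibroblasts (3.32) and by 0.67 in T cells. The heat shock gene HSP70.2 went from 1.02 to 7.87 and 12.2, with a log2 change of 3.46 from d1 to d21 in members and 3.52 in T cells.

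Among the genes lower at d14 were immediate early genes, which respond within minutes to many stimuli: 10 of 20 stress genes measured were lower, against 7.74% of all genes, and none was higher, with a median of -1.07. JUNB went from 12.0 (10.8 to 13.2) to 2.85 (2.56 to 3.15), FOSB from 8.26 to 1.09, ATF3 from 4.85 to 0.245 and ZFP36, which destabilises inflammatory messages, from 7.24 to 1.30. The transcription factor KLF4 went from 3.86 to 0.566. Between d14 and d21, 9 of 20 stress genes were at least 2-fold higher, against 9.36% of all genes. FOS, FOSB, EGR1 and ATF3 were in both sets, with FOSB at 6.10 and ATF3 at 3.02 at d21, whereas JUNB, IER2, IER3, ZFP36, NFKBIA and SOCS3 were lower at d14 and did not rise 2-fold after it. Within the largest cluster of members (cluster 1) only ATF3, FOSB, HSPH1 and EGR1 of the 9 were at least 2-fold higher at d21. Of all genes measured in that cluster 745 of 4355 were at least 2-fold higher. In T cells JUNB stood at 10.8, 7.58 and 7.57 at d1, d14 and d21, so its fall was smaller there.

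Epithelial genes were lower at d14 too, with 8 of 8 epithelial markers measured at least 2-fold lower, against 7.74% of all genes. So were the 3 blood endothelial markers measured, PECAM1, VWF and PLVAP. The hormone genes PYY and GCG of enteroendocrine cells were at 39.6 and 8.33 at d1 with no count at d14, but 99.4% and 99.2% of their d1 counts came from 1 barcode. DISP2 went from 22.4 to 0.115, and S100G, the epithelial calcium-binding protein calbindin-D9k, from 8.30 to 0.115. T cells held DISP2 at 24.9 and 0.241 and S100G at 8.85 at d1, so that the members held these genes at about the level of T cells. Without the 66 members that carried a UMI of another cell type, the log2 change of DISP2 was -5.33 and that of S100G -4.80, against -6.71 and -5.29 in all members.

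**Figure D4:**
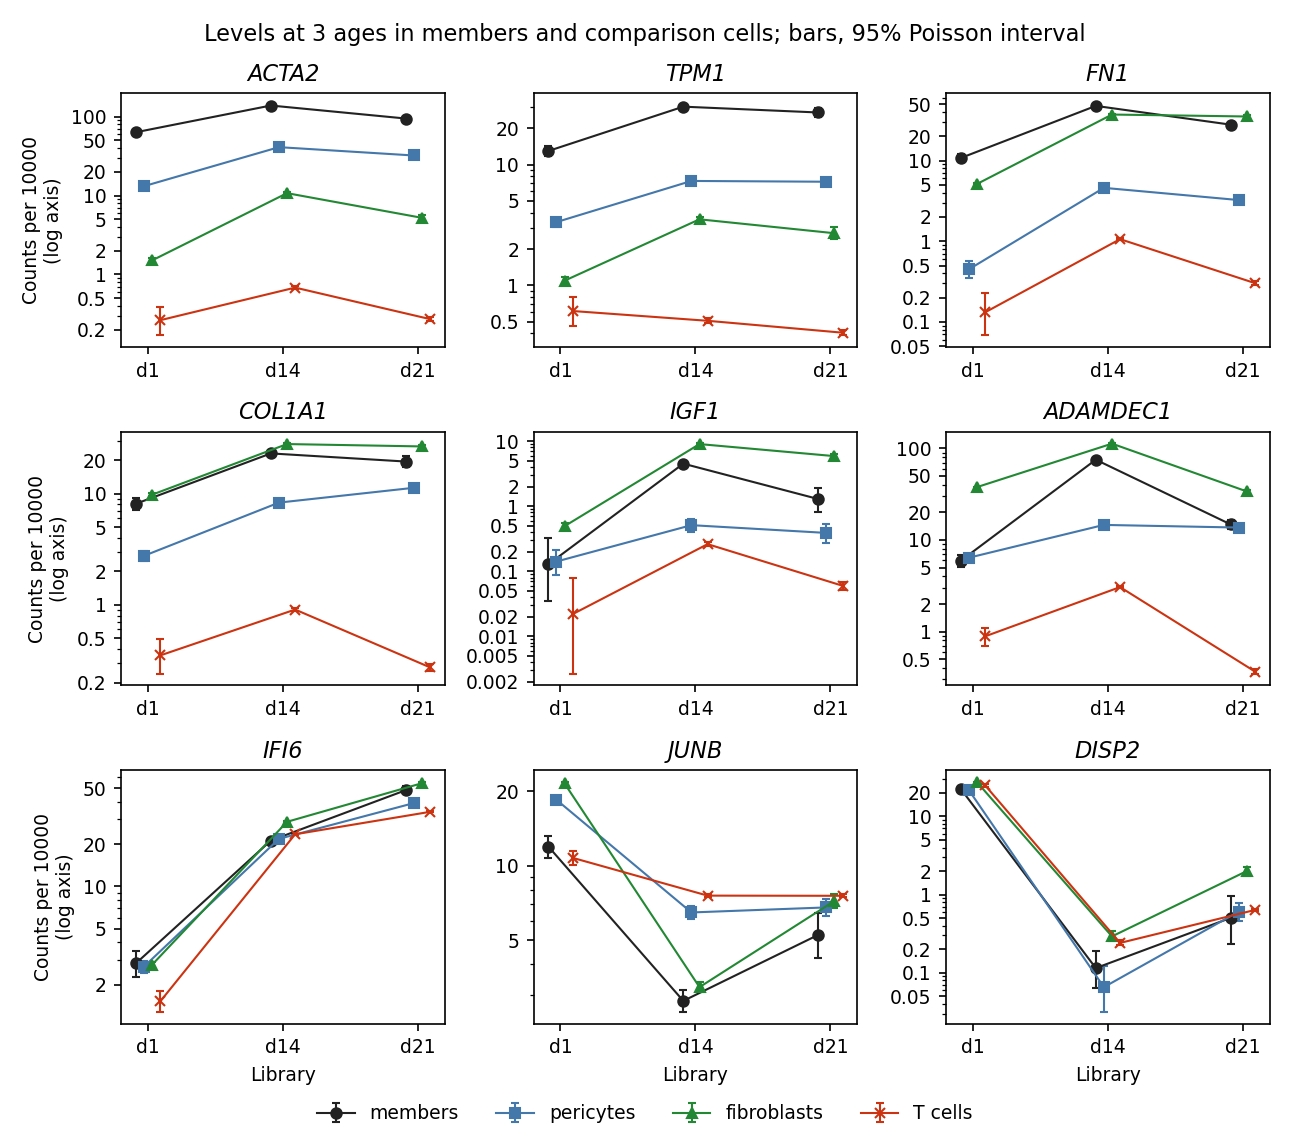
Levels (counts per 10000, log axis) of 9 genes at d1, d14 and d21 in members (black), pericytes, fibroblasts and T cells; bars are exact 95% Poisson intervals. ACTA2 and TPM1 were highest in members at each age, IGF1 and ADAMDEC1 were highest in fibroblasts, and IFI6 and DISP2 moved in the same direction in the 4 kinds of cell.

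Between d14 and d21, 379 of 4047 genes were at least 2-fold higher at d21, 9.36%, and 167 lower, 4.13%. Few contractile genes differed. Of 35 measured, the rule genes included, the filamin gene FLNC was higher and the intermediate filament gene VIM lower. The median of the 35 was -0.03 against 0.12 over all genes. Matrix genes had a median of -0.37, with POSTN, SPARC, DCN and LUM lower and LAMB2 and NPNT higher of 38. Of the fibroblast markers 5 of 11 measured (PDGFRA, DCN, LUM, ADAMDEC1 and DPT) were lower in the members and none was higher, with a median of -0.88. Of the 5 pericyte markers measured that the rule did not use, NOTCH3 and KCNJ8 were higher at d21 and none was lower. Of 4 leukocyte markers measured CD52 and CORO1A were higher at d21 and none was lower, with a median of 1.31. The small proteoglycan DCN went from 13.2 (12.5 to 13.8) to 3.81 (2.96 to 4.83), a log2 change of -1.76, and its relative LUM from 7.67 to 2.41 (-1.63). ADAMDEC1 went from 75.3 back to 14.8 (13.0 to 16.7), a change of -2.34, which was the second largest fall after PTGS1, the cyclooxygenase gene, at 1.20 (1.02 to 1.40) and 0.0560 (0.00142 to 0.312) on a single count at d21. IGF1 fell by 1.73 on the log2 scale in all members, with a change of -0.18 within cluster 1. PTGES, the prostaglandin E synthase that acts after PTGS1, went from 2.51 to 0.672.

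The largest rises from d14 to d21 were MGP, ATF3, CCL5, PCP4, LRRC10B, INPP4B, NPNT, TINAGL1, FOSB and the leukocyte gene CD52. PCP4, LRRC10B, INPP4B and TINAGL1 lead a cluster of 18 members (cluster 5), and in cluster 1 PCP4, LRRC10B and TINAGL1 had no count at either age and INPP4B stood at 0.0314 and 0. MGP, an inhibitor of calcification, went from 0.673 (0.540 to 0.830) to 7.28 (6.08 to 8.64), but was detected in only 6 of 203 and 10 of 58 members, and 37.7% of its d21 counts came from 1 cell. CCL5, a T cell chemokine, went from 1.40 to 12.5 and was found in all 58 members, while pericytes and fibroblasts of d21 held 14.0 and 14.1 and T cells 171. The CCL5 level of the members was thus at that of the other mesenchymal cells. Of 18 transcription factors measured 3, SRF, MEF2C and NR2F2, were at least 2-fold higher, against 9.36% of all genes.

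From d1 to d21, 758 of 4178 genes were at least 2-fold higher, 18.1%, and 297 lower, 7.11%, with a median of 0.30 over all genes. Of contractile genes, the rule genes included, 11 of 35 were higher and none lower (median 0.64), among them FLNA, SYNM, CALD1 and SMTN. Of matrix genes 13 of 38 were higher and none lower (median 0.68), and of receptor and signalling genes 8 of 16. Markers of other cells moved over the same pair: 2 of the 5 pericyte markers measured that the rule did not use (NOTCH3 and KCNJ8) and 4 of 10 fibroblast markers were higher, while 8 of 8 epithelial and 3 of 3 blood endothelial markers were lower. Of 4 leukocyte markers measured 3 (CD52, CORO1A and JCHAIN) were higher and none was lower, with a median of 2.76. The part of RNA from these other cell types in the list counts was not tested. The complement gene C4A went from 0.191 to 3.53 and the transcription factor NR2F1 from 0.160 to 1.57. ACTC1, the cardiac alpha actin, had 31 counts at d1, 1 at d14 and none at d21, but 51.6% of the d1 counts lay in 1 barcode. In total counts the d21 members were the shallowest of the 3 groups, and a gene without a count there could still reach a level of 0.168.

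The members were not uniform. Clustering of the 370 cells gave 5 clusters, and for each at most 2 fixed markers of any cell type were among its 10 leading genes, so the clusters were left unnamed. The genes that lead a cluster follow from the clustering and are described only, and those named here were chosen after their values were seen. Cluster 1 (155 cells, 111 from d14, 39 from d21 and 5 from d7) was led by NEFM, S100A4 and CKB, the brain-type creatine kinase. It held the highest level of ACTG2, 33.0, and of MYH11, 42.0. Cluster 3 (79 cells, 71 from d14) was led by FBLN1, IGF1 and ALDH1A3, and it held PDGFRA at 1.40, CXCL14 at 155 and ADAMDEC1 at 93.9, with ACTG2 at 7.24 and DES at 0.0358. The d14 members were thus split mainly between an ACTG2-high cluster and one with the fibroblast markers FBLN1 and PDGFRA.

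Cluster 2 (99 cells) held 95 of the 103 d1 members, and its leading genes were those of epithelium, such as DISP2, S100G and KRT20, with EPCAM at 4.28. It held DES at the highest level of the 5, 2.32, with ACTG2 at 14.6 and MYH11 at 29.4. A cluster made almost wholly of 1 library cannot be told apart from that library. Cluster 4 (19 cells, 13 from d14) was led by CENPF, TOP2A and other genes of mitosis, with CENPF at 7.09. Cluster 5 (18 cells, 10 of them from d21) was led by PCP4, MGP, ANGPT2 and TINAGL1, held the pericyte marker NOTCH3 at 4.72 against at most 0.278 in the other 4, and NR2F2 at 8.65. In cluster 5 HHIP was at 1.97 against 9.68 to 15.3 in the others, and GJA1 had no count.

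**Figure D5:**
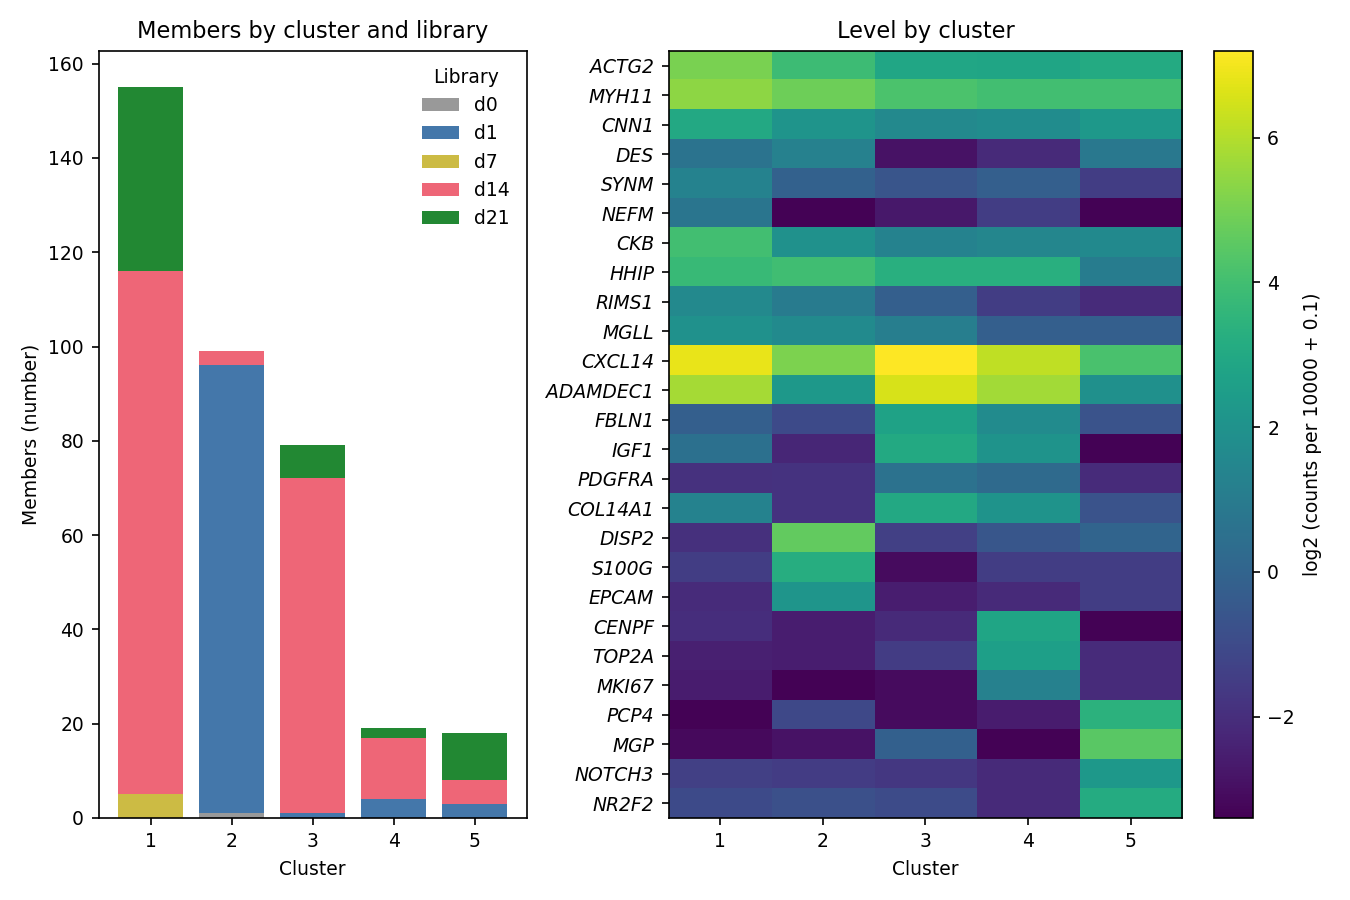
Left, number of members in each cluster by library; right, level of selected genes in each cluster (log2 of counts per 10000 plus 0.1, colour). Cluster 2 was almost wholly d1 cells, cluster 1 was highest in ACTG2 at 33.0, and MGP at 22.5 and NOTCH3 stood out in cluster 5.

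Because the mixture of clusters differed between libraries, d14 and d21 were also compared within cluster 1 alone (111 and 39 cells), a comparison chosen after seeing the data. Of the genes that were higher at d21 in all members, MGP stood at 0.0157 and 0 in cluster 1, NR2F2 at 0.408 and 0.407 and MEF2C at 0.251 and 0.204, so their rise was not seen there, and the log2 change of SRF was -0.23. ADAMDEC1 (61.9 and 13.6), DCN (10.6 and 2.95), LUM (5.78 and 1.53) and RIMS1 (3.30 and 0.815) were lower at d21 within cluster 1 as in all members. IGF1 stood at 1.40 and 1.22 in cluster 1, so its fall past 2-fold in all members was not seen there. TAGLN was at 114 and 47.6 and ACTG2 at 35.4 and 19.4, whereas MYH11 was at 39.9 and 53.3 and HHIP at 12.2 and 17.6. PPP1R12B went from 1.11 to 3.67 and NPNT from 0.251 to 1.32. Of contractile genes outside the rule, ACTA2 was at 169.7 and 82.3, while FLNA was at 24.4 and 33.2 and CALD1 at 25.4 and 37.1. The contractile genes outside the rule given here, TAGLN among them, thus did not all move in 1 direction within the cluster. ACTG2 and MYH11 helped to choose the members. On the log2 scale the rises of MYH11 (0.42), FLNA (0.44) and CALD1 (0.55) stayed below 2-fold. The falls of TAGLN (-1.26) and ACTA2 (-1.04) were past it. Elsewhere in the contractile list VIM (-1.28), CNN2 (-1.07) and CNN3 (-1.63) fell past 2-fold, and FLNC (1.67) rose past it.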

How the data were processed

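The deposited files held UMI counts per gene and barcode for 5 libraries, together with barcode and gene names (other text). Per the submitters' processing notes the authors used Cell Ranger 3.1.0 and STAR with the susScr11 (Sscrofa11.1) build. Libraries were grouped by the age in their labels. Barcodes with at least 200 genes were kept. No doublet caller was run and none were removed; members carrying a UMI of EPCAM, CDH5, PECAM1 or CD3E were counted and left out as an alternative. Levels were counts summed over cells per 10000. Genes were compared where detected in at least 3 barcodes of any kind over the 5 libraries. Their level also had to be 0.5 or more in 1 of the 2 groups compared, in each library used. With 1 library per age no test between ages was possible, and no test was run on the comparisons within libraries. A difference of at least 2-fold (0.1 added) was reported with exact Poisson or Clopper-Pearson intervals. T cells (CD3E of at least 2 UMIs) gave the level of free RNA. Members were clustered by the Leiden method on 2000 variable genes, 20 components and 15 neighbours at resolution 0.5. Genes were named by rule: the rule genes and markers, the 20 of highest fold, up to 6 of highest level and each changed member of each list, and the 10 largest rises and falls per pair of ages. Members and lists were chosen with earlier results of these data known. Gene coordinates came from RefSeq. Python 3.11.15, numpy 2.4.6, scipy 1.17.1, pandas 2.3.3, scikit-learn 1.9.0 and python-igraph 0.11.9 were used, and the scripts were tested on simulated data. Alternatives changed the UMI and gene limits, the other limits of the rule, the pseudocount, totals and level filter, and left out mixed or mitochondria-rich barcodes. Results for some items are not reported here.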

Additional observations from a re-analysis of the deposited data

Results flagged for a closer look

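MGP went in opposite directions between d14 and d21 in smooth muscle cells and myofibroblasts and in pericytes. Its log2 change was 3.25 in the members and -1.10 in pericytes, each from 1 library per age, so the difference was not tested. Over all ages MGP stood at 22.5 per 10000 in the 18 cells of cluster 5 and at no more than 0.805 in each of the other clusters.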

How the results depend on the processing

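With 1 library per age no replicate could be left out, and no paired analysis between ages was possible. No result came from a test. The share of members depended on the limits of the rule. With 3 UMIs it was 0.891% at d1 and 0.444% at d21, and with 10 UMIs 0% at d0, 0.453% at d1, 1.04% at d14 and 0.207% at d21. With at least 500 genes it was 0% at d0. With no UMI of RGS5 allowed it was 0.00974% at d7, 0.748% at d14 and 0.213% at d21, and without the RGS5 and WNT5A conditions 3.20% at d14 and 0.823% at d21. With every barcode thinned to 1000 UMIs the shares were 0% at d0, 0.470% at d1 and 1.52% at d14. The next 2 settings were chosen after seeing the data. Without members carrying a UMI of EPCAM, CDH5, PECAM1 or CD3E the d1 share was 0.495%. With the rule genes at 20 per 10000 or more the d14 share was 1.02%. The d14 share was the highest under each of these settings. The numbers of genes past 2-fold followed the pseudocount and the level filter. Against other barcodes, with 345 genes higher and 93 lower, they were 119 and 27 with 1 added, 557 and 249 without a level filter, 111 and 22 at a level of 2 or more, and 624 and 311 without the d1 library (added after seeing the data), where fewer libraries had to pass. Between ages (641 genes for d14 over d1, 546 for d21 over d14, 1055 for d21 over d1) they were 154, 35 and 131 with 1 added, 1436, 1379 and 2650 without a filter, and 188, 75 and 196 at a level of 2 or more. With the mean over barcodes d21 over d14 gave 875 genes, and within cluster 1 alone (added) it gave 1068, from fewer cells. Of d21 over d1, 71.8% of the genes past 2-fold were higher, and 53.4% with 1 added. Single genes with a change of at least 2-fold in the main setting reversed as follows, and the cause was not tested. HSPB8 from d1 to d21 was at -0.084 without members carrying a UMI of EPCAM, CDH5, PECAM1 or CD3E (added). With members chosen after thinning (added), MGP was at -1.21 from d1 to d14, and from d1 to d21 FABP5 was at 0.0086 and FBLN1 at -1.20. Within cluster 1, from d14 to d21, GUCY1B3 was at -0.33, INPP4B at -0.39, MEF2C at -0.21, MGP at -0.21, NR2F2 at -0.0027, SRF at -0.23 and TGFB3 at -0.56. Of 4211 log2 changes of named genes under the alternatives other than the added ones, 3827 stayed within the counting error of the main value and 384 moved out of it. None that was at least 2-fold in the main setting reversed. Smaller changes were not checked for direction. Between 86.2% and 91.9% of members stayed in a matching cluster at 10 components or resolution 1, each of which gave 6 clusters.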

Other observations

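Cell division genes were found in a small group of the members. Cluster 4, 19 cells of which 13 came from d14, 4 from d1 and 2 from d21, held CENPF at 7.09, TOP2A at 5.92 and MKI67 at 2.28 per 10000, beside 0.12, 0.14 and 0.04 in the remaining members. In the same cluster HHIP stood at 9.70 and CXCL14 at 73.0. Of 9 division genes measured between d1 and d14, CENPF, CDK1 and PCNA were at least 2-fold higher at d14, against 10.2% of all genes. Of 10 measured between d14 and d21 CDK1 was at least 2-fold lower, against 4.13% of all genes. None of the 10 was at least 2-fold higher, against 9.36% of all genes, and their median log2 change was -0.46.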
